A study of Homo sapiens with 6 samples.

Results

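The multidomain BCL2 family was described in A549, a human cell line from a lung adenocarcinoma, with and without overexpression of GPX3. Its 8 members were taken by symbol from the deposited tables of 58735 genes: 5 genes of proteins that restrain apoptosis (BCL2, BCL2L1, BCL2L2, MCL1 and BCL2A1) and 3 genes of proteins that carry it out (BAX, BAK1 and BOK). All 8 symbols were found, each on 1 row, and all 8 passed the filter on low counts that left 14458 genes to be tested. The series holds 6 RNA sequencing libraries, 3 titled OE_GPX3, with genotype and treatment given as OE, and 3 titled Vector, with both given as WT. GPX3 encodes a secreted glutathione peroxidase. The labels do not give the construct, its promoter or how the OE_GPX3 cells were selected, nor whether replicates are independent cultures. The p-values here therefore reflect library-to-library spread alone, and some of that spread may be technical. In bulk RNA, fewer cells with a transcript and less of it in each cell cannot be told apart.

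Proteins of this family meet at the outer membrane of mitochondria. BAX and BAK1 can assemble into pores that release cytochrome c and so start the caspase cascade. BOK is a related effector that is controlled in part by its own turnover. BCL2, BCL-xL (from BCL2L1), BCL-w (from BCL2L2), MCL1 and BFL1 (from BCL2A1) can bind and hold BAX, BAK1 or both. BH3-only proteins such as NOXA (from PMAIP1) in turn occupy the binding groove of the restraining members. The libraries measure the RNA of whole genes, so isoforms such as the short form of BCL-x, as well as protein levels and protein binding, were not measured.

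The libraries held 15831693 to 18751815 counts. GPX3 had 23372, 17470 and 20984 counts in the OE_GPX3 libraries, against 638, 658 and 648 in the Vector libraries, so the labels fit the targeted gene. Epithelial and A549 marker genes were abundant, with a summed level of 7417 to 9419 FPKM in OE_GPX3 and 6709 to 7247 FPKM in Vector over 7 genes; FPKM are the authors' counts scaled by gene length and by library. Those ranges do not overlap, and whether this has a part in any result here was not tested. CDKN2A, which A549 cells lack, had 1 count in 1 OE_GPX3 library and 0 in the other libraries. Among markers of blood cells, PTPRC had at most 2 counts and CD3E at most 1 in any library, while ITGAM had 66, 30 and 54 counts in OE_GPX3, against 58, 46 and 38 counts in Vector. Fibroblast markers summed to 0.344 to 0.708 FPKM in OE_GPX3 and 0.408 to 0.459 FPKM in Vector, and endothelial markers to at most 0.109 FPKM in OE_GPX3 and 0.115 FPKM in Vector. Over all genes, edgeR's quasi-likelihood test called 38 at a Benjamini-Hochberg adjusted p under 0.05, and 657 when OE_GPX3 replicate 1 was left out. That replicate differed most from the others of its group (chi-square per degree of freedom 20.5 and 15.1, against 7.48 to 9.71 in the other pairs of replicates), so results that turn on it are given with and without it.

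The start regions of the BAX and BCL2A1 genes are shown because they hold the most and the fewest CpG pairs among the 6 members matched in the table. Each run is 300 bases, 250 before and 50 after a start of the gene in RefSeq on GRCh38.p14, and capitals mark every CpG. These starts are not always those of the genes as counted. The BCL2A1, BOK and BCL2 windows, and the BCL2L1 window with 16 CpG pairs, lie wholly within the spans of the counted genes. The counted BAX gene starts at 48954815, within its window.
BAX, chr19:48954625-48954924, plus strand: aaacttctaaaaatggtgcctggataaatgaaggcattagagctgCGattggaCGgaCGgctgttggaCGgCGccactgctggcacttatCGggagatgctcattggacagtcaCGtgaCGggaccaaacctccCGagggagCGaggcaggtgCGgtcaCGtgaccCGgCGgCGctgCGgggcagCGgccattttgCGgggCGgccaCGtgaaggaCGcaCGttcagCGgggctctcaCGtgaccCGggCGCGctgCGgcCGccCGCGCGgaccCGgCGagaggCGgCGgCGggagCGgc
BCL2A1, chr15:79971147-79971446, minus strand: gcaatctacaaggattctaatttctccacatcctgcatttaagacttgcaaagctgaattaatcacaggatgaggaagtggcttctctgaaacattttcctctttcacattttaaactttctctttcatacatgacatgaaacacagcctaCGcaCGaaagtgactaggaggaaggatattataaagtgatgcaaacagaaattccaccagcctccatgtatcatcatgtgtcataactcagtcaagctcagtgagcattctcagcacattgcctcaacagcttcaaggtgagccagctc
The BAX window holds 38 CpG pairs at 67.3% GC and the BCL2A1 window 2 at 41.0% GC, where the median over the 35116 windows of the table is 14. The BAX window also holds the palindrome CACGTG 4 times, a sequence found in 7.26% of the table's windows. Of the other members in the table, BCL2 has 31 CpG pairs, BOK 22, BCL2L1 20 and 16 in its 2 windows and BAK1 7, and BCL2L2 and MCL1 were not matched. CpG number did not order the levels, since BCL2, with the second most pairs, had the lowest level of the family.

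The family's RNA was dominated by 1 restraining gene and 1 effector gene. BCL2L1 (ENSG00000171552, chromosome 20, 31664452 to 31723989, minus strand, hg38) averaged 110.1 ± 8.50 FPKM in OE_GPX3 and 106 ± 7.63 FPKM in Vector (SD, n = 3 each). BAX (ENSG00000087088, chromosome 19, 48954815 to 48961798, plus strand) averaged 104 ± 13.7 FPKM in OE_GPX3 and 90.8 ± 5.40 FPKM in Vector (SD, n = 3 each). Together they took 72.6% to 75.4% of the family's summed FPKM in the OE_GPX3 libraries and 72.3% to 75.5% in the Vector libraries. By their mean FPKM over the 6 libraries both stood above 97.0% of the tested genes. The 2 genes traded places: BCL2L1 was the higher in 5 of 6 libraries and BAX in OE_GPX3 replicate 3, and their ranges overlap.

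MCL1, BOK and BAK1 formed a middle tier. MCL1, a short-lived restraining protein with rapid turnover (ENSG00000143384, chromosome 1, 150574551 to 150579738, minus strand), averaged 31.8 ± 2.63 FPKM in OE_GPX3 and 32.1 ± 2.30 FPKM in Vector (SD, n = 3 each). BOK (ENSG00000176720, chromosome 2, 241551424 to 241574138, plus strand) averaged 18.1 ± 1.85 FPKM in OE_GPX3 and 14.4 ± 1.39 FPKM in Vector (SD, n = 3 each). BAK1 (ENSG00000030110, chromosome 6, 33572547 to 33580293, minus strand) averaged 15.1 ± 2.27 FPKM in OE_GPX3 and 14.1 ± 1.48 FPKM in Vector (SD, n = 3 each). MCL1 lay below BAX and above BOK in all 6 libraries without overlap, whereas BOK and BAK1 overlapped, with BAK1 the higher in Vector replicate 2.

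The other restraining genes were the lowest of the family. Among all tested genes, by mean FPKM over the 6 libraries, BCL2L2 stood above 65.9%, BCL2A1 above 34.7% and BCL2 above 3.15%. BCL2L2 (ENSG00000129473, chromosome 14, 23298790 to 23311759, plus strand) averaged 6.72 ± 0.503 FPKM in OE_GPX3 and 7.24 ± 0.816 FPKM in Vector (SD, n = 3 each). BCL2A1, best known from blood cells and as a target of NF-kB (ENSG00000140379, chromosome 15, 79960889 to 79971446, minus strand), averaged 1.53 ± 0.744 FPKM in OE_GPX3 and 1.61 ± 0.345 FPKM in Vector (SD, n = 3 each). BCL2, the founding member (ENSG00000171791, chromosome 18, 63123346 to 63320128, minus strand), averaged 0.178 ± 0.0425 FPKM in OE_GPX3 and 0.130 ± 0.0189 FPKM in Vector (SD, n = 3 each). Each of these stood below its upper neighbour in all 6 libraries with no overlap. BCL2L1 was 637 ± 128 times the level of BCL2 in OE_GPX3 and 824 ± 91.7 times in Vector (SD, n = 3 each), per base of gene. The deposited length for BCL2 is 11765 bases, all annotated exons together, and its level per base depends on that length.

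**Figure D1:**
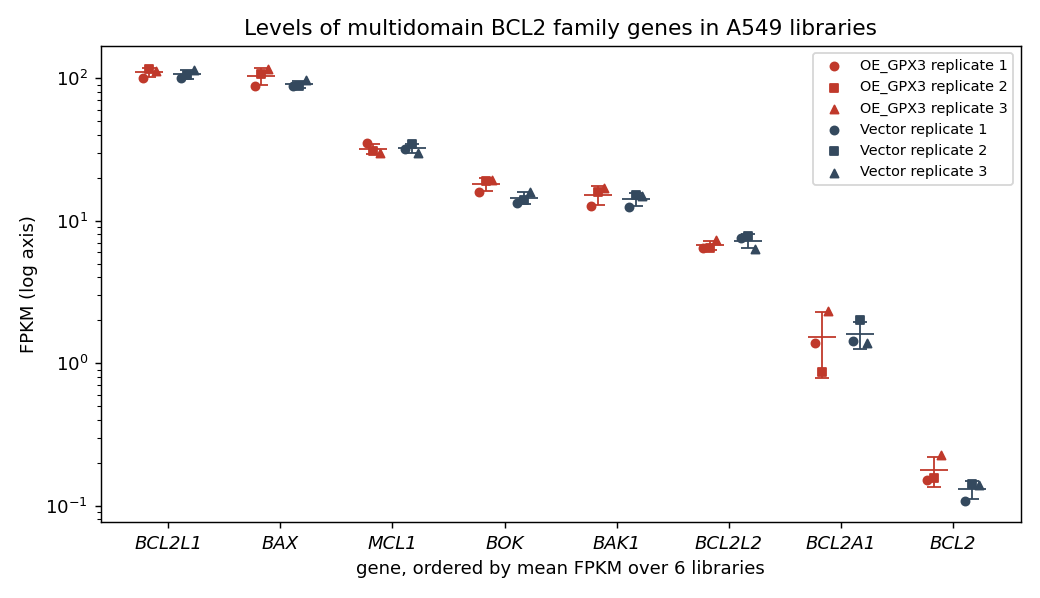
FPKM of the 8 genes in each library on a log axis, OE_GPX3 in red and Vector in dark blue, with the group mean and SD as bars (n = 3 each). BCL2L1 and BAX lie near 100 FPKM, and BCL2 lies below 0.23 FPKM in all 6 libraries.

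In FPKM, which depend on gene length, the balance between restraining and effector RNA was close to even. In counts not divided by gene length the restraining genes held more, 60.6% in OE_GPX3 and 63.3% in Vector. The 5 restraining genes held 52.5% ± 2.43 of the family's summed FPKM in OE_GPX3 and 55.3% ± 0.860 in Vector (SD, n = 3 each). The libraries of the groups overlapped, at 50.2% to 55.0% in OE_GPX3 and 54.4% to 56.1% in Vector. Within a library BAX stood at 0.940 ± 0.0730 of BCL2L1 in OE_GPX3 and at 0.856 ± 0.0218 in Vector (SD, n = 3 each). The lowest value in OE_GPX3 and the highest in Vector were both 0.881 and differed only beyond that rounding. BOK relative to BAK1 was 1.20 ± 0.0650 in OE_GPX3 and 1.02 ± 0.0803 in Vector (SD, n = 3 each), with a lowest value of 1.13 in OE_GPX3 above the highest of 1.07 in Vector. These ratios are scores over the members and were given no test.

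**Figure D2:**
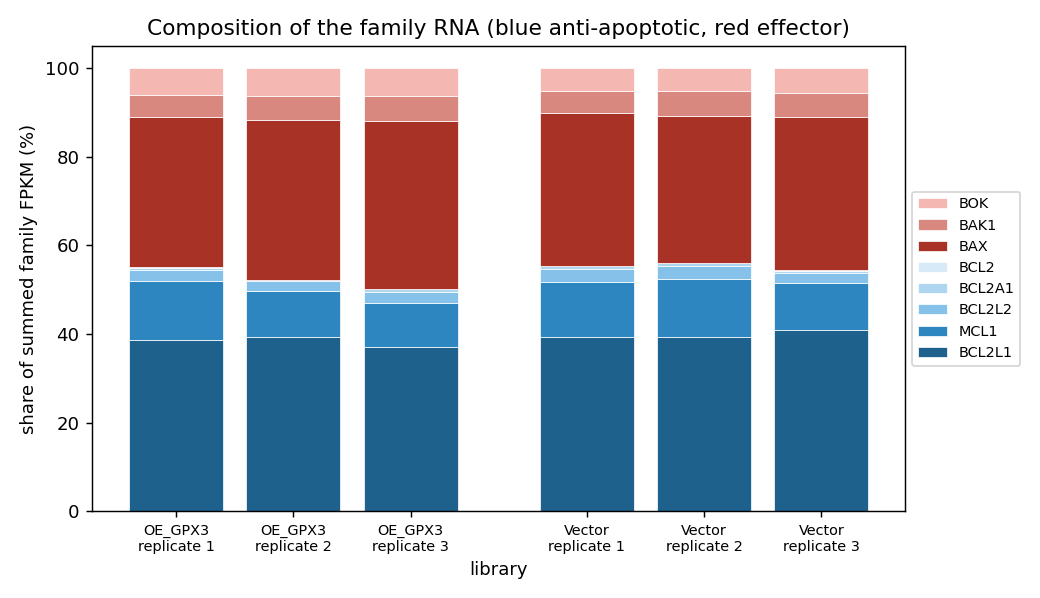
Share of the family's summed FPKM (%) held by each gene in each library, restraining genes in blue and effector genes in red, OE_GPX3 on the left and Vector on the right. BCL2L1 takes 37.1% to 39.3% in OE_GPX3 and 39.2% to 40.9% in Vector.

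Which members differed with GPX3 overexpression was asked from the counts, with a fit over all 14458 tested genes. None of the 8 was called by edgeR's quasi-likelihood test at a Benjamini-Hochberg adjusted p under 0.05, where 0.263% of all tested genes were called, and 1 of the 8, BOK, had an unadjusted p under 0.05, where 14.6% of all tested genes had one. limma on FPKM called 0 of the 7 members it tested and 0.0925% of its 10814 genes. DESeq2 called 0 of the 6 members for which it gave an adjusted p, and 119 genes in all. Fold changes were above 0 for 5 members and below 0 for 3, with a median log2 fold change of 0.06, against 47.4% above 0 and a median of -0.02 over all tested genes. The groups did not overlap in CPM (counts scaled to a common library size with TMM factors) for 2 of the 8 members, BOK and BCL2, both higher in OE_GPX3, and for 18.5% of all tested genes (8.62% higher and 9.9% lower).

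Among the restraining genes, BCL2L1 and MCL1 had the fold changes nearest 0. BCL2L1 stood at 336, 386 and 373 CPM in the OE_GPX3 libraries, against 335, 351 and 382 CPM in the Vector libraries. OE_GPX3 replicate 1 and Vector replicate 1 were the lowest of their groups and the groups overlapped. Its log2 fold change was 0.04 (SE 0.10, 95% confidence interval -0.17 to 0.24, edgeR adjusted p = 0.892), an interval that runs from 0.888-fold to 1.18-fold. MCL1 stood at 153.5, 134 and 130.1 CPM in OE_GPX3, against 141, 153 and 132 CPM in Vector, again with overlap. Its log2 fold change was -0.03 (SE 0.10, interval -0.24 to 0.18, edgeR adjusted p = 0.920), an interval that runs from 0.847-fold to 1.14-fold. The sign of BCL2L1 turned with scaling by total counts alone (-0.03), and the signs of both turned after a correction for GC content (-0.05 for BCL2L1 and 0.07 for MCL1).

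BCL2L2, BCL2A1 and BCL2 rested on fewer counts. BCL2L2 stood at 27.0, 27.0 and 30.4 CPM in OE_GPX3, against 32.3, 33.2 and 26.6 CPM in Vector, so that Vector replicate 3 was the lowest of all 6 and the groups overlapped. It had a log2 fold change of -0.13 (SE 0.12, 95% interval -0.38 to 0.13, edgeR adjusted p = 0.646). BCL2A1 had 27, 16 and 39 counts in OE_GPX3, against 28, 43 and 25 counts in Vector, with the lowest and the second highest count both in OE_GPX3. Its log2 fold change was -0.11 with a wide interval of -0.80 to 0.57 (SE 0.34, edgeR adjusted p = 0.898), which spans changes up to 1.49-fold higher and 1.74-fold lower. BCL2 had 32, 31 and 41 counts in OE_GPX3, against 23, 33 and 27 counts in Vector. In CPM, at 1.79, 1.83 and 2.66 in OE_GPX3 and 1.30, 1.70 and 1.65 in Vector, the groups did not overlap, but the gap between them was 0.0974 CPM. The log2 fold change of BCL2 was 0.43 (SE 0.31, 95% interval -0.20 to 1.05, edgeR adjusted p = 0.527).

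Among the effectors, BOK showed the largest separation and was not called with all 6 libraries. BOK stood at 43.5, 51.5 and 51.8 CPM in the OE_GPX3 libraries, against 36.5, 38.4 and 43.5 CPM in the Vector libraries. The lowest OE_GPX3 library, replicate 1, and the highest Vector library, replicate 3, were almost level. In FPKM their order was the other way round, at 15.93 in OE_GPX3 replicate 1 and 15.94 in Vector replicate 3, so the groups overlapped on that scale. The log2 fold change was 0.31, or 1.24-fold (SE 0.12, 95% interval 0.07 to 0.55, unadjusted p = 0.0113 and adjusted p = 0.226 in edgeR). Without OE_GPX3 replicate 1 it was 0.39 and BOK was called (edgeR adjusted p = 0.0376), in a fit that called 657 genes. After the GC correction it was 0.13 (edgeR adjusted p = 0.705). On the log2(FPKM + 1) scale the difference of BOK was 0.31 (SE 0.11, limma adjusted p = 0.259).

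BAX and BAK1, the main pore formers, were not called. BAX stood at 231, 277 and 297 CPM in OE_GPX3, against 231, 229.9 and 253 CPM in Vector. OE_GPX3 replicate 1 lay among the Vector libraries while the other OE_GPX3 libraries lay above all of them. The log2 fold change of BAX was 0.17 (SE 0.11, 95% interval -0.04 to 0.39, edgeR adjusted p = 0.445), without OE_GPX3 replicate 1 it was 0.27 (edgeR adjusted p = 0.0954), without OE_GPX3 replicate 3 it was 0.11 (edgeR adjusted p = 0.808), and after the GC correction it was 0.04. BAK1 stood at 28.1, 35.1 and 37.3 CPM in OE_GPX3, against 27.9, 33.7 and 33.1 CPM in Vector, with overlap. For BAK1 the log2 fold change was 0.08 (SE 0.13, 95% interval -0.17 to 0.34, edgeR adjusted p = 0.784), and -0.04 after the GC correction.

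**Figure D3:**
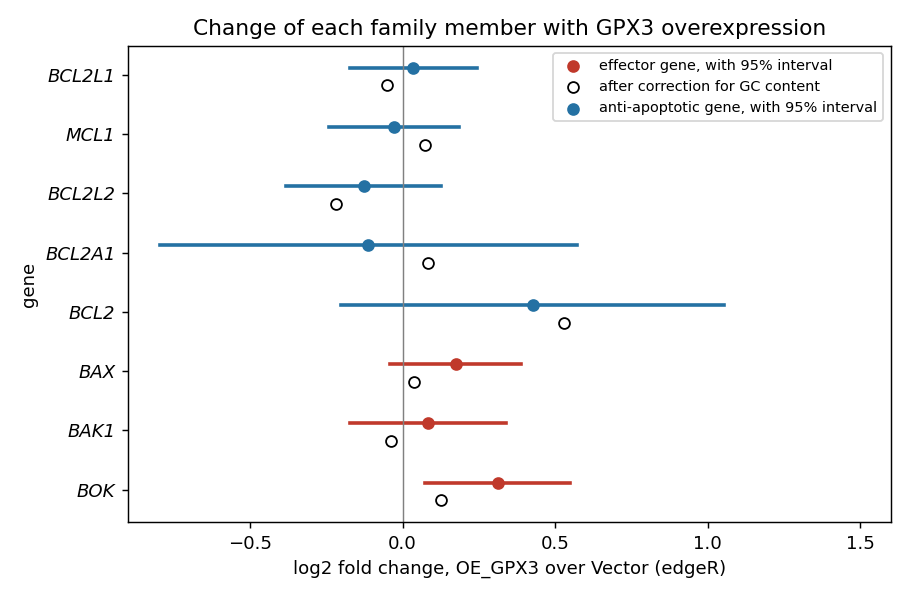
Log2 fold change of each member, OE_GPX3 over Vector, from edgeR on the counts, with 95% confidence intervals; open circles give the value after the correction for GC content. The interval of BOK (0.07 to 0.55) lies above 0 and those of the other 7 span 0.

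The effectors are the most GC-rich members, and fold changes over the whole table moved with GC content. Over all tested genes the median log2 fold change was -0.19 in the tenth with the lowest GC content of transcripts (median 38.6% GC) and 0.18 in the tenth with the highest (median 64.1% GC). BOK, at 65.8% GC, has the highest GC content in the family and BAX, at 60.4%, the second highest, followed by BAK1 at 58.7%. BCL2L1 and BCL2L2 are at 56.2% each, BCL2 and MCL1 at 45.7% each and BCL2A1 at 40.3%. BCL2, with the highest fold change of the family, is thus among its GC-poor members. Once the trend of each library with GC content had been removed, the values ran from -0.22 for BCL2L2 to 0.53 for BCL2. In that fit edgeR called 0 members and 4 of all 14450 tested genes. The correction removes any trend with GC content whatever its source, and so lowers the values of GC-rich genes by construction. The fold changes of the 3 effectors were each smaller in size after the correction, as was that of BCL2A1 (-0.11 before and 0.08 after). Those of BCL2L2 (-0.13 and -0.22), MCL1 (-0.03 and 0.07), BCL2L1 (0.04 and -0.05) and BCL2 (0.43 and 0.53) were larger in size. The source of the trend was not tested.

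**Figure D4:**
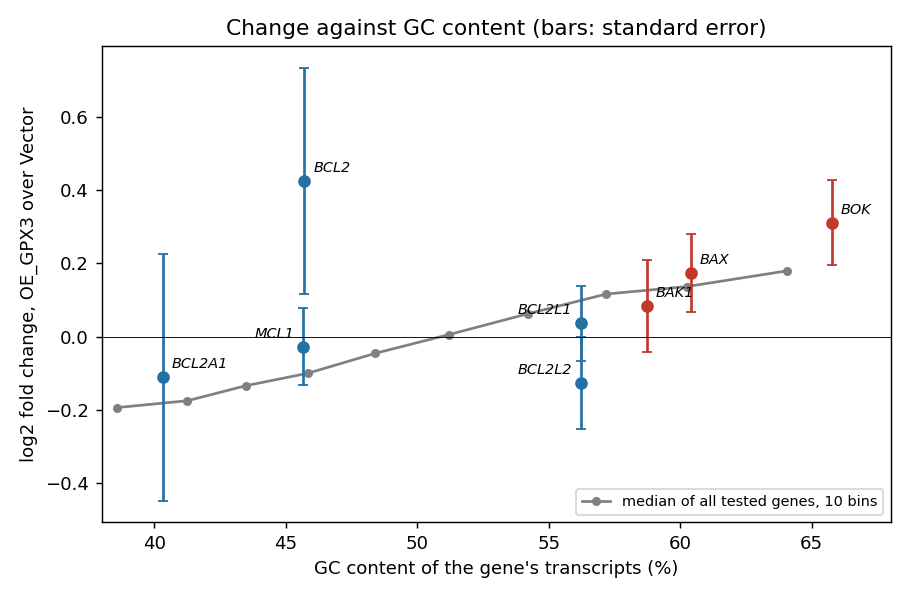
Log2 fold change, OE_GPX3 over Vector, of each member against the GC content of its gene's transcripts (%), with standard errors, effectors in red and restraining genes in blue; the grey line joins the medians of all tested genes in 10 bins of GC content. The grey line runs from -0.19 to 0.18, and the effectors lie at its GC-rich end.

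Some members share their locus with other counted genes, and the sources used here do not state whether reads were assigned by strand. ABALON, an antisense RNA on the opposite strand, overlaps 1424 of the 3314 exonic bases of BCL2L1. It had 153, 179 and 163 counts in OE_GPX3, against 131, 136 and 138 counts in Vector, at most 2.84% of the counts of BCL2L1 in the same library. Its groups did not overlap, with a log2 fold change of 0.38 (SE 0.17, 95% interval 0.04 to 0.72), and it was not called (edgeR adjusted p = 0.292). BCL2L2 shares 813 exonic bases with the readthrough gene BCL2L2-PABPN1, which had 1 to 5 counts in OE_GPX3 and 3 to 6 in Vector, and 206 exonic bases with PPP1R3E on the other strand, which had 44 to 64 counts in OE_GPX3 and 45 to 71 in Vector. BOK-AS1, which overlaps BOK on the other strand, was at 0 in all 6 libraries, and the processed pseudogene BAK1P1 had 3 to 9 counts in OE_GPX3 and 7 to 9 in Vector. The counts of BCL2L1 and BCL2L2 are uncertain to the extent that reads of these overlaps were split between genes.

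BH3-only genes encode the proteins that set the family in motion. Of 8 such genes, all tested, 1 fell, 0 rose and 7 did not pass the test (edgeR, adjusted p under 0.05), where 0.166% of all tested genes fell and 0.0968% rose, with a median log2 fold change of -0.08 against -0.02 over all tested genes. The gene that fell was PMAIP1, whose product NOXA binds MCL1 and BFL1. PMAIP1 stood at 15.2, 18.9 and 17.2 CPM in the OE_GPX3 libraries, against 23.3, 39.9 and 27.8 CPM in the Vector libraries. Vector replicate 2 was the highest and the groups did not overlap. The log2 fold change of PMAIP1 was -0.83 (SE 0.16, edgeR adjusted p = 0.0148). It was not called without Vector replicate 2 (-0.58, edgeR adjusted p = 0.497) or after the GC correction (-0.69, edgeR adjusted p = 0.247), in fits that each called 4 genes. Nor was it called without OE_GPX3 replicate 2 (-0.90, edgeR adjusted p = 0.0761, in a fit that called 1 gene) or 3 (-0.82, edgeR adjusted p = 0.0837, in a fit that called 12). In limma on FPKM PMAIP1 was not called (adjusted p = 0.18). MCL1, its partner, had a log2 fold change of -0.03. BAD, another BH3-only gene, was not called (log2 fold change 0.31, SE 0.13, edgeR adjusted p = 0.277) but was called in 1 of 14 alternatives on the counts.

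Genes that act beside and after the family gave 1 further call. Of 10 genes that act once the outer membrane is open, ENDOG, a mitochondrial nuclease, rose and 9 did not pass the test, where 0.0968% of all tested genes rose, with a median log2 fold change of -0.03. ENDOG stood at 26.9, 34.8 and 33.7 CPM in OE_GPX3, against 13.7, 15.4 and 23.9 CPM in Vector, with no overlap. Its log2 fold change was 0.85 (SE 0.16, edgeR adjusted p = 0.0253). ENDOG was not called without Vector replicate 2 (0.76, edgeR adjusted p = 0.250) or after the GC correction (0.66, edgeR adjusted p = 0.167), in fits that each called 4 genes. Nor was ENDOG called without OE_GPX3 replicate 2 (0.79, edgeR adjusted p = 0.112, in a fit that called 1 gene) or 3 (0.82, edgeR adjusted p = 0.0999, in a fit that called 12). Its adjusted p in limma on FPKM was 0.211. Of 6 genes of MCL1 turnover, such as ubiquitin ligases and deubiquitinases that set the life of the protein, 0 were called. Of all tested genes 0.263% were called in either direction, so a count of 0 in a short list says little about it. Of these 6 genes, 5 were below 0, as were 7601 of all 14458 tested genes. The median of the list was -0.12, against -0.02 over all tested genes. Its GC content ran from 39.7% (MARCHF5) to 50.3% (HUWE1). Bins of all tested genes with a median GC content of 38.6% to 51.2% had median log2 fold changes from -0.19 to 0.01. Whether GC content has a part in the values of this list was not tested. The ligase subunits BTRC and FBXW7 had log2 fold changes of -0.21 (SE 0.14, edgeR adjusted p = 0.483) and -0.31 (SE 0.21, edgeR adjusted p = 0.489). Of 7 genes of outer membrane channels, receptors and fission or fusion machinery, 0 were called, beside the same 0.263% of all tested genes. The median of these 7 was -0.01, with the mitofusin MFN1 at -0.30 (SE 0.16, edgeR adjusted p = 0.389) and the fission GTPase DNM1L at -0.16 (SE 0.12, edgeR adjusted p = 0.553).

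**Figure D5:**
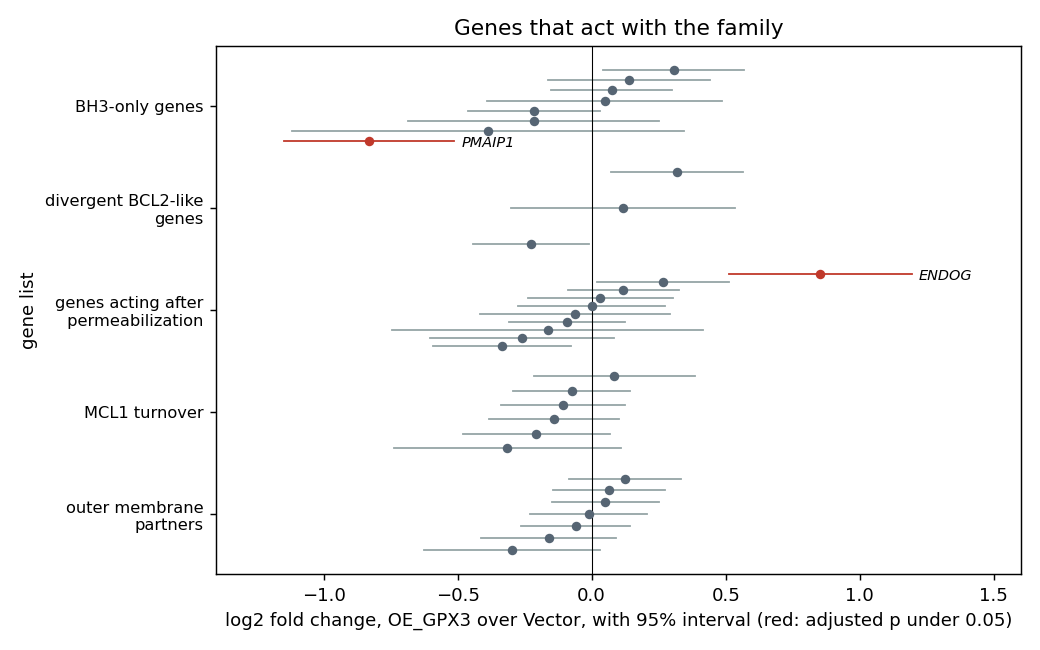
Log2 fold change, OE_GPX3 over Vector, with 95% confidence intervals for the tested genes of 5 lists that act with the family; red marks an adjusted p under 0.05 in edgeR. PMAIP1 (-0.83) and ENDOG (0.85) are the 2 genes marked.

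The genes most like each member across the 6 libraries were sought among 9975 protein-coding genes averaging 5 CPM or more, by Pearson's r of log2 CPM, as a description. For BOK they were PLPP2 (r = 0.999) and CBR1 (r = 0.998), for BAX TUBA1C (r = 0.995) and PSENEN (r = 0.994), and for BAK1 TAF6 (r = 0.995) and ASPSCR1 (r = 0.992). For BCL2L1 they were RABGGTA (r = 0.992) and RIN1 (r = 0.989), for MCL1 DDX27 (r = 0.991) and CDH17 (r = 0.981), and for BCL2L2 NCAPG2 (r = 0.984) and NFYC (r = 0.983). BCL2A1 had FITM2 (r = 0.987) and SENP5 (r = 0.979), and BCL2 had DGKZ (r = 0.997) and POLR2D (r = 0.991). The 6 points share their library and its base composition, and the highest of 9975 values of r over 6 points are high by selection. None of these 16 genes was called by edgeR (adjusted p from 0.286 to 0.972), where 0.263% of all tested genes were called. They were picked for following uncalled members over the same libraries, so their lack of calls is no separate result.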

How the data were processed

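The authors deposited whole-number counts per gene and library, and FPKM. The build is hg38 (submitters' processing notes). No aligner, counter or strand setting is given in the sources used here. Tested on the files, the deposited FPKM are each count divided by gene length and by 1 constant for the library, which differs from the total count by -4.52% to 4.90%. Positions of all 58735 genes equal those of GENCODE release 29. The labels' library protocol describes small RNA enrichment, whereas the counts are of messenger RNA genes; how the deposited libraries were made is thus unclear, and its effect on the levels was not tested.

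From the counts, edgeR 4.0.16 (R 4.3.3) filterByExpr (minimum count 10, minimum total 15), TMM factors and a robust two-sided quasi-likelihood test compared OE_GPX3 with Vector, p-values being Benjamini-Hochberg adjusted across every tested gene; the biological coefficient of variation was 0.110. limma 3.58.1 (trend, robust) was run on log2(FPKM + 1), keeping mean FPKM of 1 or more, which left out BCL2; fold changes on that scale understate low genes. Alternatives were DESeq2 1.42.0, total-count and upper-quartile scaling, other filters, protein-coding genes alone, a replicate block, a GC correction (lowess, span 0.3, on the length-weighted GC content of GENCODE transcripts) and leaving out each library. The fits were tested on simulated data. Precision is limited by 3 libraries a group and 15831693 to 18751815 counts a library.

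Members and lists were chosen with earlier results of these data known. Named are all members, each list's called genes or otherwise the 2 of smallest p, overlapping genes, GPX3 and the 2 genes most like each member. Markers, BAD and the divergent genes too low to test were named besides. 1 marker is not reported here.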

Additional observations from a re-analysis of the deposited data

How the results depend on the processing

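The number of all genes called moved with the processing while the number of members called stayed at 0 in every alternative but 1. With 38 genes called by edgeR, DESeq2 called 119, scaling by total counts 68, no filter on low counts 129, the replicate block 231 and the GC correction 4, and leaving out 1 library gave 1 to 657. Members called ranged from 0 to 1 over the left-out libraries, the 1 being BOK without OE_GPX3 replicate 1. limma on FPKM called 10 genes, 1 with no filter on low FPKM, and 2 to 232 with 1 library left out. Log2 fold changes near 0 turned sign: BCL2L1 was -0.025 with total counts and -0.050 with the GC correction, where MCL1 was 0.073, BCL2A1 0.085 and BAK1 -0.037. With 1 library left out BCL2L1 ran from -0.0055 to 0.10, MCL1 from -0.10 to 0.030, BCL2A1 from -0.52 to 0.18, BOK from 0.26 to 0.40, BAX from 0.11 to 0.27, BAK1 from 0.0026 to 0.20, BCL2 from 0.24 to 0.53 and BCL2L2 from -0.21 to -0.067, and in limma on FPKM MCL1 ran from -0.077 to 0.040 and BCL2A1 from -0.30 to 0.12. The cause was not tested. BOK, BAX, BCL2 and BCL2L2 kept their direction in all 14 alternatives on the counts. DESeq2 gave no adjusted p for BCL2 and BCL2A1. BCL2 had a log2 difference of 0.06 in limma with no filter on low FPKM. As a share of counts not divided by gene length the restraining genes held 60.6% in OE_GPX3 and 63.3% in Vector.

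Libraries with the same number deviated together in part, with r = 0.439, 0.0414 and 0.299 for numbers 1, 2 and 3 over 10351 genes. Replicates 1 and 3 of OE_GPX3 each correlated best with the Vector replicate of the same number, and replicate 2 with Vector replicate 3 (r = 0.118). The labels do not say that the numbers mark a batch, so the replicate block was run only as an alternative. The replicate block gave 231 genes and 0 members. Under it the standard errors of BOK and BAX were smaller than in the main fit. BOK had a log2 fold change of 0.31 (SE 0.085 against 0.117, edgeR unadjusted p = 0.0024 and adjusted p = 0.0697). BAX had 0.17 (SE 0.075 against 0.106, edgeR unadjusted p = 0.0411 and adjusted p = 0.213).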

Other observations

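The divergent BCL2-like genes, which carry parts of the family's sequence but lack a settled role in pore formation, held no called gene in the main edgeR fit. BCL2L12 was called in 1 of the 14 alternatives on the counts and BCL2L13 in 0. BCL2L10 and BCL2L14 did not pass the filter on low counts. BCL2L12 stood at 37.5, 40.1 and 49.2 CPM in OE_GPX3, against 32.6, 32.5 and 36.7 CPM in Vector, a log2 fold change of 0.32 (SE 0.12, edgeR adjusted p = 0.234) with no overlap between groups. BCL2L13, known as a mitophagy receptor, stood at 62.9, 59.1 and 63.8 CPM in OE_GPX3, against 69.8, 75.7 and 71.6 CPM in Vector, a log2 fold change of -0.23 (SE 0.11, edgeR adjusted p = 0.327), also with no overlap. Of the 3 tested genes of this list 0 were called by edgeR, where 0.263% of all tested genes were called. An unadjusted p under 0.05 in edgeR was found for 2 of them, as for 14.6% of all tested genes. The same 2 did not overlap between groups, as did not 18.5% of all tested genes.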
